A study of Mus musculus with 12 samples.

Results

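AMPA receptors are the glutamate-gated cation channels that carry most fast excitatory transmission in the brain, and oligodendrocyte precursor cells (OPCs) also carry them and receive synaptic input from neurons. 10 genes of this receptor system were followed: the pore-forming subunits Gria1, Gria2, Gria3 and Gria4, the proline-rich transmembrane proteins Prrt1 and Prrt2, the cornichons Cnih2 and Cnih3, and the CKAMP proteins Shisa7 and Shisa9. They were chosen by name, 10 of 30165 genes listed for OPCs and of 17918 genes listed for neurons, and Prrt1 was picked with its OPC difference between the genotypes already known. The OPC differences of all 10 genes are therefore given as a description without a test, and these genes were tested between the genotypes only in neurons. Earlier results of these data were known when the 10 genes were chosen, so the neuron tests were not blind to them.

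The samples were 12 RNA-seq libraries of magnetically sorted mouse cortical cells, 3 in each of 4 groups: OPCs and neurons of control (ctl) mice, labelled wild type, and of double knockout (dKO) mice. In dKO mice the tamoxifen-inducible recombinase NG2-CreERT2, which is driven from the NG2 gene of OPCs and pericytes, removes the floxed exons 14 and 15 of Cacna1c (Cav1.2) and exon 2 of Cacna1d (Cav1.3), both L-type voltage-gated calcium channel genes, and the neurons of these mice are not themselves targeted. Tamoxifen was given at 100 mg/kg on postnatal days 7 and 8, and each library pooled 2 mice, 6 per group. The age at cell isolation is not given in the sources used here. OPCs were bound with antibodies against CD140, NG2 and O4, and O4 also marks later oligodendrocyte stages. Neurons were what remained after other cells had been bound and removed.

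A receptor is a tetramer of GluA1 to GluA4, the products of Gria1 to Gria4. GluA2 sets calcium permeability: its transcript is edited at the pore, and receptors without GluA2 let calcium through. Cornichons and CKAMP proteins bind the finished channel and change its surface level and gating. Prrt1 (SynDIG4) is a partner that helps hold a reserve of receptors outside the synapse, while Prrt2, its relative, acts at the presynaptic terminal and is mutated in paroxysmal movement disorders. Each subunit gene also carries a pair of alternative exons of equal length, flip and flop, which code for part of the ligand-binding domain and set how fast the channel desensitises.

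The neuron data list transcripts, so the flip and flop exons could be followed there, and those of Gria1 and Gria2 are shown because their split is described below. Gria1 was the subunit whose transcripts could all be assigned, and Gria2 was the most abundant. In each pair the exons are 115 bases long and differ at 36 positions, the capitals, so 68.7% of the bases are shared. They were read from GENCODE transcripts on GRCm38, coding strand. The Gria1 flip exon is at chr11:57310608-57310722 and the flop exon at chr11:57309769-57309883, plus strand. The Gria2 flip exon is at chr3:80690404-80690518 and the flop exon at chr3:80691320-80691434, minus strand.
Gria1 flip: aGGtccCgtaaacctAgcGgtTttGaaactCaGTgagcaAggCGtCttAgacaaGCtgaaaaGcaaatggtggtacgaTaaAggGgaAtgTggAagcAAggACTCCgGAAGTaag
Gria1 flop: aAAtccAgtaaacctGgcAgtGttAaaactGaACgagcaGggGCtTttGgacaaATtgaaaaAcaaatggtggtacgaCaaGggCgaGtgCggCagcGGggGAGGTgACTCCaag
Gria2 flip: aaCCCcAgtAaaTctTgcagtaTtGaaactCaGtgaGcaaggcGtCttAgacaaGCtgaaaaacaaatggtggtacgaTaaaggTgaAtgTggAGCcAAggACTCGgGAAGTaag
Gria2 flop: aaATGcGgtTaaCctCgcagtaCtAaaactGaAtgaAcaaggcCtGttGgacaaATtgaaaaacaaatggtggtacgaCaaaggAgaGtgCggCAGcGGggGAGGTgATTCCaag

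Library totals were 14935963 to 19812274 counts in OPCs and 15052892 to 16344601 estimated counts in neurons. The targeted genes had log2 fold changes (dKO over ctl) of -0.44 ± 0.15 (SE) for Cacna1c and -0.55 ± 0.31 for Cacna1d in OPCs. They come from counts over whole genes that include exons outside the deletion. With 1 library left out they ran from -0.53 to -0.33 for Cacna1c and from -0.93 to -0.27 for Cacna1d. The Cacna1d groups overlapped, with dKO 3 at 13.4 CPM against 10.9 to 14.6 CPM in ctl. The sorted cells were mixed. In OPC libraries the summed level of 12 OPC markers was 1304 to 2385 CPM (counts scaled to library size), against 53286 to 91761 CPM for 12 oligodendrocyte markers. In neuron libraries 12 pan-neuronal markers summed to 710 to 1590 CPM, against 14014 to 31561 CPM for 12 endothelial markers. All OPC and pan-neuronal markers were detected in every library of their own sort.

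Several libraries stood apart from the rest of their cell type. OPC dKO 2 had Xist at 774 CPM, against at most 1.16 CPM in the other OPC libraries, and 0 counts for 4 Y-linked genes that all the others expressed. It also had the highest level of 9 of 10 astrocyte markers, whose sum was 5794 CPM against 1100 to 3073 CPM elsewhere, of 9 of 12 OPC markers and of 8 of 12 pan-neuronal markers, with a pan-neuronal sum of 352 CPM against 226 to 290 CPM and a glutamatergic sum of 63.4 CPM against 30.6 to 45.7 CPM. OPC dKO 3 was highest for all 12 microglial and all 12 endothelial markers and lowest for 10 of 12 oligodendrocyte markers. Neuron ctl 1 was highest for all 12 oligodendrocyte and all 12 microglial markers and for 9 of 10 astrocyte markers, and lowest for 7 of 10 GABAergic markers. Neuron dKO 1 had the highest level of 10 of 12 pan-neuronal and all 8 glutamatergic markers and the lowest of all 12 endothelial markers. Its glutamatergic sum was 235 CPM against 69.4 to 103 CPM in the other 5 neuron libraries. It was also highest for 6 of 8 ependymal and choroid plexus markers, with a sum of 30553 CPM against 5016 to 14916 CPM. Y-linked genes were expressed in neuron ctl 1 and dKO 1, and summed to at most 3.69 CPM in the other 4. Fold changes of the 10 genes and the named pathway genes are given with and without OPC dKO 2 and neuron dKO 1. For the 10 genes the plot of fold changes shows the values with each library left out.

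Per length, Prrt1 was the highest of the 10 genes in OPCs. Its authors' FPKM (fragments per kilobase of gene, scaled to library size) was 38.1, 48.5 and 43.2 in ctl 1, 2 and 3, higher than the mean of 97.1% of all listed genes. Gria4 followed at 11.1 ± 2.22 FPKM (SD, n = 3 ctl libraries), with a range that overlapped neither neighbour. Cnih2 (4.80 ± 0.572), Gria1 (3.41 ± 1.16) and Gria2 (2.98 ± 0.756) came next, and each overlapped the next in this order. Shisa7 (1.17 ± 0.606), Shisa9 (1.06 ± 0.445), Gria3 (0.795 ± 0.374) and Cnih3 (0.433 ± 0.206) likewise formed a run of overlapping ranges. Prrt2 was lowest at 0.0994 ± 0.0575 FPKM, from 2 to 8 counts per library. Over most of its length, 3567 bases, Prrt2 overlaps the gene model Gm42742 on the same strand, which had 3 to 19 counts. Reads shared by both could have been left uncounted, so the Prrt2 level in OPCs may be understated.

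In neurons the order was another one. Gria2 was highest, with 18.0, 24.9 and 22.4 FPKM in ctl 1, 2 and 3, followed by Cnih2 at 18.2 ± 4.89 FPKM (SD, n = 3), and these ranges overlapped. Prrt2 (4.37 ± 0.715) and Gria4 (3.96 ± 0.162) overlapped each other and stood above Gria1 (1.95 ± 0.111). Prrt1, first in OPCs, was sixth here at 1.42 ± 0.139 FPKM, and its range overlapped that of Gria3 (1.18 ± 0.535). Gria3 overlapped Cnih3 (0.837 ± 0.214), which stood above Shisa9 (0.487 ± 0.0586) and Shisa7 (0.233 ± 0.0737). The cell types were counted and normalised separately, so these levels stand side by side without a test.

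**Figure D1:**
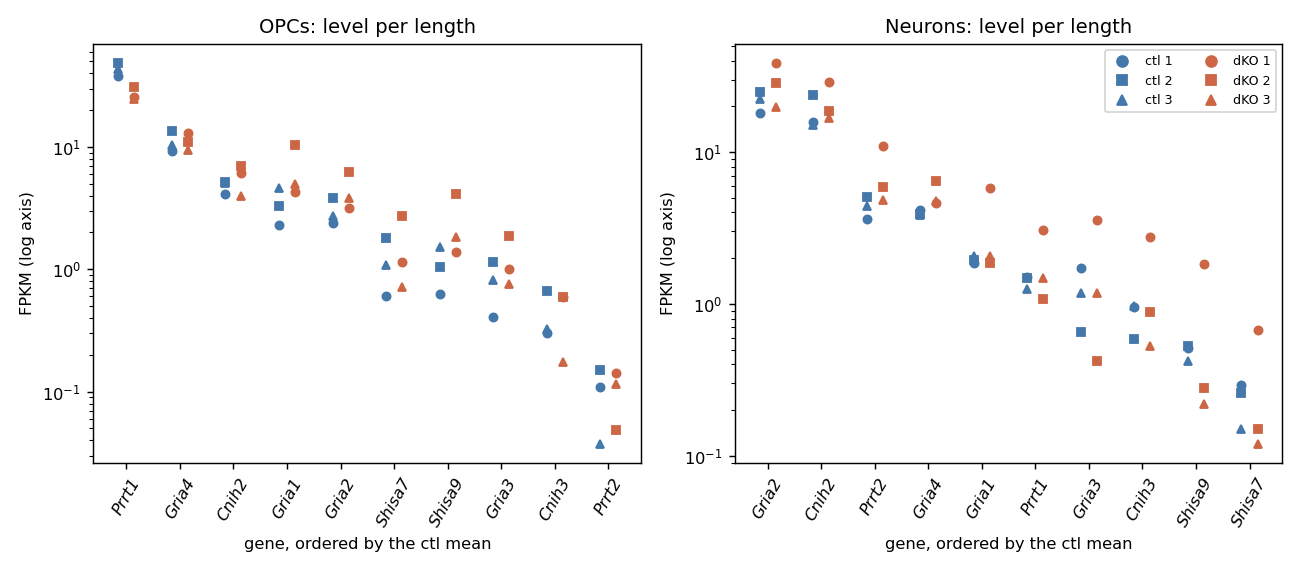
FPKM of the 10 genes in each library (points, log axis) for OPCs (left) and neurons (right), ordered by the ctl mean, with ctl in blue and dKO in orange. Prrt1 led in OPCs at 38.1 to 48.5 FPKM in ctl, and Gria2 led in neurons at 18.0 to 24.9 FPKM; the dKO 1 circle lies highest for 9 of 10 genes in neurons.

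The subunits were mixed in different proportions. Of the summed FPKM of Gria1 to Gria4 in OPC ctl libraries, Gria4 made up 60.8% ± 4.28 (SD, n = 3), Gria1 18.7% ± 5.42, Gria2 16.3% ± 1.54 and Gria3 4.19% ± 1.24. In neuron ctl libraries Gria2 made up 75.1% ± 4.73, Gria4 13.9% ± 1.98, Gria1 6.78% ± 0.548 and Gria3 4.24% ± 2.31. The OPC share of Gria2 depended on the gene length of 15548 bases that the authors used: as a share of counts, without length, it was 32.0% ± 2.40 and that of Gria4 48.5% ± 2.83. Gria4 had the largest share in every OPC ctl library and Gria2 in every neuron library on either measure.

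In OPC dKO libraries the Gria4 share was 60.7%, 37.5% and 49.9% in dKO 1, 2 and 3, against 64.4%, 62.1% and 56.1% in ctl. The Gria1 share was 19.8%, 35.1% and 26.2%, against 16.1%, 15.1% and 24.9%. Both pairs of groups overlapped, with dKO 2 lowest for Gria4 and highest for Gria1. The mean shares differed (dKO minus ctl) by -11.5 percentage points for Gria4 and 8.38 for Gria1. Without dKO 2 these differences were -5.55 and 4.34. In neurons the mean shares differed between dKO and ctl by -1.38 percentage points for Gria2, 1.00 for Gria1, 0.56 for Gria4 and -0.18 for Gria3. Exact two-sided permutation tests of 3 against 3 libraries, which cannot go below p = 0.1, gave p = 0.7 to 1 and an adjusted p of 1 for each of the 4 shares.

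**Figure D2:**
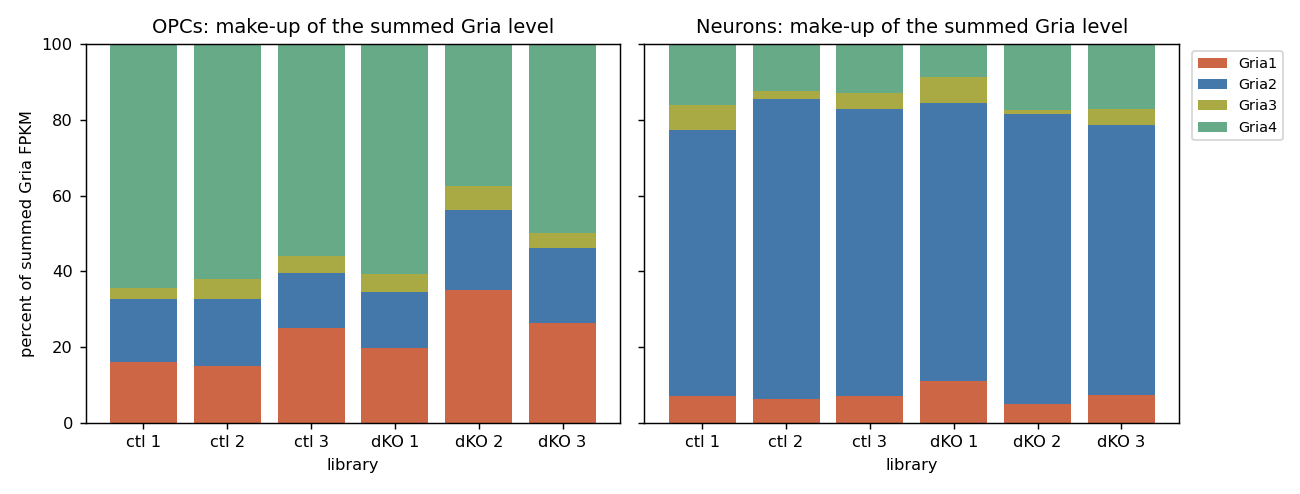
Share of each subunit gene in the summed FPKM of Gria1 to Gria4, one bar per library, for OPCs (left) and neurons (right). Gria4 took 56.1% to 64.4% in OPC ctl libraries and Gria2 70.0% to 79.4% in neuron ctl libraries, and OPC dKO 2 had the smallest Gria4 share, 37.5%.

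In OPCs, Prrt1 was lower in every dKO library than in any ctl library. It measured 87.0, 111 and 100.1 CPM in ctl 1, 2 and 3 and 60.3, 71.8 and 57.5 CPM in dKO 1, 2 and 3. The fitted ratio of dKO to ctl was 0.626, a log2 fold change of -0.67 ± 0.13 (SE, n = 3 and 3). Leaving out any 1 library gave -0.79 to -0.59, with -0.79 without dKO 2. Its counts were 931 to 1783 per library. Less Prrt1 per cell and fewer cells that express it cannot be told apart in bulk RNA. The OPC marker sum overlapped between the genotypes, at 1400 to 2238 CPM in ctl and 1304 to 2385 CPM in dKO. So did the far larger oligodendrocyte sum, at 69081 to 84208 CPM in ctl and 53286 to 91761 CPM in dKO. The library lowest in Prrt1, dKO 3, was lowest in both sums, and dKO 1 was highest in the oligodendrocyte sum. The part of either cell type in the Prrt1 difference was not tested.

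Prrt1 was the only one of the 9 genes passing the count filter (a mean normalised count of at least 10) whose OPC groups did not overlap, while 16.4% of all 17364 genes that passed did not overlap either, 7.82% being lower in dKO. Sums of other cell markers also did not overlap in OPC libraries. The 12 microglial markers summed to 273 to 330 CPM in ctl and 351 to 1120 CPM in dKO, and the 10 GABAergic neuron markers to 10.9 to 13.1 CPM and 16.0 to 18.7 CPM. All 12 microglial markers were detected in every library, and Vip was the GABAergic marker at 0 in some. Their part in the Prrt1 difference was not tested.

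Prrt1 lies on chromosome 17 at 34848507 to 34852100, plus strand, in the coordinates deposited for OPCs, and no other listed gene overlaps it. The 5 tested genes on each side, chosen by position after the Prrt1 values were seen, had log2 fold changes of -0.13 to 0.19, and the groups overlapped for all 10. Ppt2, a lysosomal thioesterase gene upstream of Prrt1, was at -0.04 ± 0.16, and Fkbpl, the next tested gene downstream, at -0.13 ± 0.35.

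The subunit genes gave higher dKO means in OPCs, in large part from 1 library. Gria1, whose product forms calcium-permeable receptors when GluA2 is missing, measured 13.9, 19.8 and 28.0 CPM in ctl and 26.0, 62.8 and 30.7 CPM in dKO. Its log2 fold change was 0.94 ± 0.36 with all libraries and 0.44 ± 0.26 without dKO 2. Gria2 measured 37.0, 59.3 and 42.2 CPM in ctl and 49.9, 96.8 and 60.01 CPM in dKO, a log2 fold change of 0.56 ± 0.26, or 0.22 ± 0.20 without dKO 2. For both genes the groups overlapped and dKO 2 was highest of all 6. Gria3 gave 0.62 ± 0.42, and 0.16 ± 0.38 without dKO 2.

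Gria4, the most abundant subunit gene in OPCs, had nearly equal means. It measured 57.8, 85.0 and 65.9 CPM in ctl and 83.1, 69.9 and 61.1 CPM in dKO, a log2 fold change of 0.01 ± 0.16. With 1 library left out the values ran from -0.10 to 0.18, with 0.02 without dKO 2. Unlike for Gria1 and Gria2, dKO 2 was not its highest library, and the groups overlapped.

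Among the auxiliary subunits in OPCs, Shisa9 (CKAMP44, which slows recovery from desensitisation) measured 3.27, 5.44 and 7.99 CPM in ctl and 7.39, 21.9 and 9.82 CPM in dKO. Its log2 fold change was 1.22 ± 0.45, and 0.60 ± 0.35 without dKO 2. Shisa7 (CKAMP59) gave 0.40 ± 0.52 and turned to -0.32 ± 0.42 without dKO 2. Cnih2, a cornichon that slows channel closing, gave 0.25 ± 0.25, or 0.07 ± 0.26 without dKO 2. Cnih3 gave 0.10 ± 0.54 and -0.15 ± 0.61 without it, from 8 to 32 counts per library. OPC dKO 2 was the highest library for 6 of the 9 genes passing the filter, the same library that had the highest OPC, astrocyte, pan-neuronal and glutamatergic marker sums, and the part of those in the differences was not tested.

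**Figure D3:**
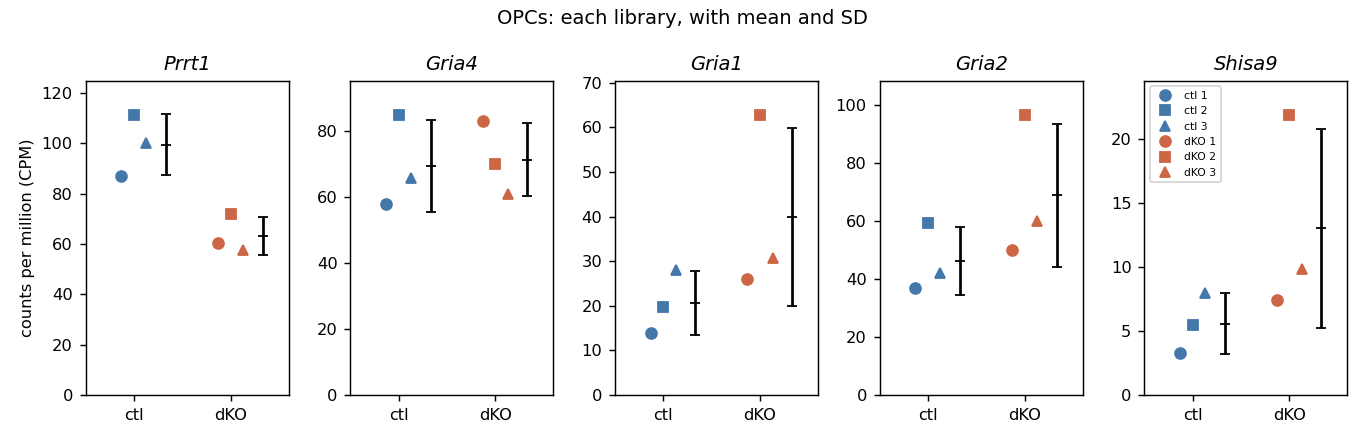
CPM of Prrt1, Gria4, Gria1, Gria2 and Shisa9 in each OPC library (points) with the mean and SD of each group (black). Prrt1 lies at 87.0 to 111 CPM in ctl and 57.5 to 71.8 CPM in dKO without overlap, and the dKO 2 square is highest for Gria1, Gria2 and Shisa9.

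In neurons, no gene of the 10 passed the test between the genotypes. All 10 passed the count filter, none had an adjusted p under 0.05 or an unadjusted p under 0.05 in edgeR's quasi-likelihood test over 14352 genes, and DESeq2 also gave 0 at either threshold. Among all genes tested, 9% had an unadjusted p under 0.05 and 0 an adjusted p under 0.05 in edgeR. The 10 log2 fold changes were all above 0, with a median of 0.46 beside 0.01 for all genes, and neuron dKO 1 was the highest library for 9 of them. Without dKO 1 the median was -0.11 and 7 of the 10 were below 0.

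Gria4 was the exception to that library. It measured 14.4, 12.8 and 13.02 CPM in ctl and 18.1, 20.1 and 15.5 CPM in dKO, and every dKO library was above every ctl library, as was the case for 7.34% of all genes, or 15.3% in either direction. On the log2 scale the difference was 0.42 ± 0.20 (edgeR, adjusted p = 0.562), 0.41 ± 0.22 without dKO 1, and 0.33 to 0.52 over all libraries left out. Among the 4 libraries without Y-linked expression it was 0.46 ± 0.24. GABAergic and endothelial marker sums did not overlap in the same libraries, at 364 to 637 against 703 to 916 CPM and 28031 to 31561 against 14014 to 25249 CPM for ctl and dKO. All 10 GABAergic and 12 endothelial markers were detected in every library, and their part in the Gria4 difference was not tested.

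For the other subunit genes the difference rested on neuron dKO 1. Gria2 measured 87.7, 112 and 105 CPM in ctl and 193, 121 and 85.9 CPM in dKO, which gave 0.40 ± 0.28 on the log2 scale (edgeR, adjusted p = 0.694), and 0.03 without dKO 1. Gria1 measured 10.1, 10.7 and 11.995 CPM in ctl and 30.5, 10.2 and 11.2 CPM in dKO, with 0.67 ± 0.42 (adjusted p = 0.667, edgeR) and -0.04 without dKO 1. Gria3 gave 0.51 ± 0.69 and -0.59 without dKO 1. In dKO 2 and dKO 3, Gria1 lay within 10.2 to 11.2 CPM, inside the ctl range.

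Prrt2 in neurons measured 8.07, 11.5 and 10.4 CPM in ctl and 23.6, 12.9 and 10.6 CPM in dKO. On the log2 scale it gave 0.66 ± 0.33 (edgeR, adjusted p = 0.589), 0.23 ± 0.26 without dKO 1 and 0.10 ± 0.27 among the 4 libraries without Y-linked expression. Prrt1, from 20 to 59 counts per library, measured 1.69, 1.87 and 1.58 CPM in ctl and 3.66, 1.21 and 1.92 CPM in dKO, with 0.41 ± 0.53 (adjusted p = 0.843, edgeR) and -0.14 without dKO 1. The lower Prrt1 seen in dKO OPCs was thus not seen in neurons, where the groups overlapped, but the SE was 0.53 against 0.13 in OPCs and the difference between the cell types was not tested.

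The auxiliary subunits in neurons turned in direction with that same library. Shisa9 measured 2.21, 2.44 and 1.99 CPM in ctl and 7.95, 1.27 and 0.991 CPM in dKO: dKO 1 was above every ctl library and the other dKO libraries below every one. Its log2 fold change was 0.63 ± 0.77 with all libraries and -0.96 without dKO 1. Shisa7 went from 0.37 ± 0.73 to -0.82, Cnih3 from 0.67 ± 0.65 to -0.30 and Cnih2 from 0.18 ± 0.26 to -0.08. Shisa7 rested on 10 to 59 counts per library, Shisa9 on 15 to 128 and Cnih3 on 19 to 105.

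**Figure D4:**
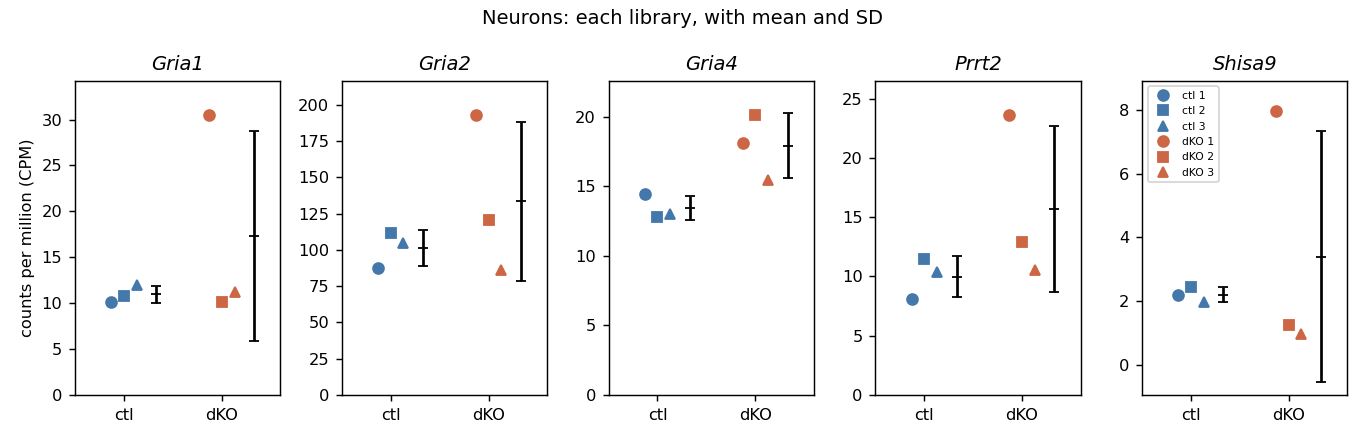
CPM of Gria1, Gria2, Gria4, Prrt2 and Shisa9 in each neuron library (points) with the mean and SD of each group (black). The dKO 1 circle is highest for all but Gria4, whose dKO libraries lie at 15.5 to 20.1 CPM against 12.8 to 14.4 CPM in ctl.

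**Figure D5:**
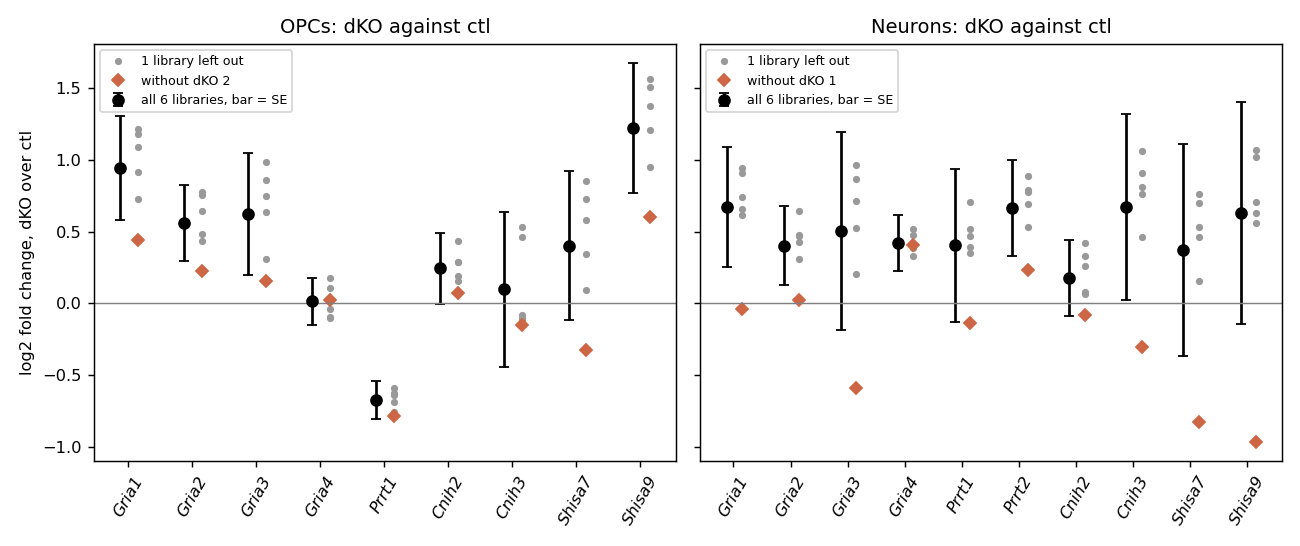
Log2 fold change (dKO over ctl) of each gene with its SE (black), the values with 1 library left out (grey), and the value without OPC dKO 2 (left) or neuron dKO 1 (right, orange diamonds). Prrt1 in OPCs stays between -0.79 and -0.59, and 7 of the 10 neuron values fall below 0 without dKO 1. Prrt2 did not pass the count filter in OPCs.

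The flip and flop exons shown above split the neuronal subunit transcripts. In Gria1, all of whose estimated TPM could be assigned, flop made up 0%, 7.72% and 44.5% in ctl 1, 2 and 3 and 64.7%, 22.2% and 12.4% in dKO 1, 2 and 3. The flip level was 1.83 to 3.14 TPM in every library, and the flop level was 4.76 TPM in dKO 1 against at most 1.47 TPM in the others. The groups overlapped, and an exact two-sided permutation test gave p = 0.5 (adjusted p = 0.9 over the 2 genes tested). The mean flop shares differed (dKO minus ctl) by 15.7 percentage points, and by -0.13 without dKO 1. A share of 0 can come from the way reads were divided between transcripts. In Gria2, flop made up 66.4% to 87.1% of what could be assigned, which was 39.1% to 80.9% of its TPM, with exact p = 0.9 (adjusted p = 0.9) between the genotypes. By estimated counts, which do not allow for transcript length, the Gria2 flop share was 45.9%, 51.1% and 75.6% in ctl and 61.8%, 47.0% and 53.3% in dKO, under that of flip in ctl 1 and dKO 2.

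Other genes of the AMPA receptor system and the kainate receptors, the sister family of glutamate receptors, were read from a list of 52. This list was chosen with earlier results of these data known, so its p-values and counts are a description. In OPCs 48 passed the filter: 2 were higher and 3 lower at an unadjusted p under 0.05, that is 5 of 48, where 11.5% of all genes reached that threshold, 6.26% higher and 5.27% lower. None had an adjusted p under 0.05 in edgeR, which 0.00576% of all genes had. Grik3 alone had it in DESeq2 (adjusted p = 0.0182), where 1.69% of all genes did, and in edgeR without the count filter (adjusted p = 0.0487), where 0.288% did. Grik3, a kainate receptor subunit, measured 5.27, 13.7 and 10.3 CPM in ctl and 26.1, 41.7 and 16.4 CPM in dKO. On the log2 scale dKO exceeded ctl by 1.52 ± 0.40 (edgeR, adjusted p = 0.292). The TARP Cacng8, which couples the channel to scaffolds, was at 1.41 ± 0.45 (adjusted p = 0.321). Shisa8 was at -0.75 ± 0.24 (0.327), the scaffold Grip2 at -0.62 ± 0.21 (0.337) and Adam22, a receptor for secreted Lgi1, at -0.32 ± 0.11 (0.362), each an edgeR adjusted p. Without dKO 2 the log2 fold changes were 1.11 for Grik3, 1.11 for Cacng8, -0.83 for Shisa8, -0.67 for Grip2 and -0.34 for Adam22. Other libraries left out gave smaller values for all but Grik3. They were 1.03 for Cacng8 without ctl 1, -0.57 for Shisa8 and -0.23 for Adam22 without ctl 2, and -0.46 for Grip2 without dKO 1. The microglial and GABAergic marker sums given beside Prrt1 separated the same libraries, and their part in these differences was not tested. The groups did not overlap for 7 of the 48, these 5 among them, beside 16.4% of all genes. The median log2 fold change of the 48 was 0.09, against 0.01 for all genes, and 0.0023 without dKO 2.

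In neurons 48 of the 52 passed the filter, and 5 of them were higher and 0 lower at an unadjusted p under 0.05, against 9% of all genes in both directions 4.96% being higher and 4.04% lower. None had an adjusted p under 0.05 in edgeR, and 1, Lrrtm1, had it in DESeq2, where 0.614% of all genes did. Lrrtm1, a postsynaptic adhesion protein that binds neurexins, measured 6.25, 7.12 and 6.79 CPM in ctl and 17.1, 12.4 and 12.3 CPM in dKO. The log2 ratio of dKO to ctl was 1.06 ± 0.25 (edgeR, adjusted p = 0.521). Cpt1c, an endoplasmic reticulum partner of GluA1, was at 0.89 ± 0.28, the secreted Olfm1 at 0.80 ± 0.28, Lrrtm3 at 0.80 ± 0.31 and the TARP Cacng4 at 0.85 ± 0.36, with adjusted p between 0.521 and 0.548 (edgeR). Without dKO 1 the log2 fold changes were 0.87 for Lrrtm1, 0.64 for Cpt1c, 0.51 for Olfm1, 0.84 for Lrrtm3 and 0.82 for Cacng4. Lrrtm3 and Cacng4 were lowest without ctl 1, at 0.62 and 0.56. The GABAergic and endothelial marker sums given beside Gria4 separated the same libraries, and their part in these differences was not tested. The groups did not overlap for 8 of the 48, these 5 among them, beside 15.3% of all genes. The median of the 48 was 0.35 with all libraries and 0.06 without dKO 1. Without dKO 1, 3 of the 48 had an unadjusted p under 0.05, as did 1183 of 14352 genes.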

How the data were processed

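The authors deposited gene counts with FPKM for OPCs, and estimated counts, TPM and FPKM per transcript for neurons. Their methods name HISAT2 alignment to GRCm38 and featureCounts for every sample, but the neuron values are fractional and per transcript, and the program that made them is not given in the sources used here. The labels name mm39 and the methods GRCm38, so OPC coordinates are given as deposited with the build open. The 12 columns of normalised counts were not used. Neuron values were summed per Entrez gene, and estimated counts were rounded to whole numbers. Rows without a symbol held 0.0441% of neuron counts.

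Each cell type was fitted alone in edgeR 4.0.16 (R 4.3.3): genes with a mean TMM-normalised count of at least 10, glmQLFit and glmQLFTest on genotype, Benjamini-Hochberg adjustment over all genes tested, SE as the absolute log2 fold change over the square root of F. CPM are TMM-scaled. Alternatives were DESeq2 1.42.0, RLE scaling, no filter, a replicate block, unrounded counts, each library left out and the 4 neuron libraries without Y-linked expression. The last alternative, neuron TPM levels and the flip and flop split were chosen after seeing the data. The fit was tested on simulated data before use. Counting was not stated to use strand. Nothing says that libraries with 1 number share mice. The p-values measure the spread between these pools of mice.

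The 10 genes and the lists were chosen with earlier results of these data known. Named besides them are the targeted genes, up to 6 listed pathway genes per cell type with the smallest p, marker genes, and, by position and after their values were seen, Ppt2 and Fkbpl beside Prrt1 and Gm42742 over Prrt2. 1 listed gene, Grasp, was not matched in OPCs.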

Additional observations from a re-analysis of the deposited data

How the results depend on the processing

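The OPC comparison called 1 gene at an adjusted p under 0.05, and 293 with DESeq2, 87 without the filter, 25 with the replicate block and 1 to 201 with 1 library left out (201 without dKO 2); at an unadjusted p under 0.05 the left-out range was 1105 to 2299, the lowest without ctl 2. In neurons 0 genes passed the adjusted threshold, 88 with DESeq2 and 0 with any library left out, and the unadjusted left-out range was 781 to 1582, the lowest without ctl 1. The listed pathway and kainate genes at an unadjusted p under 0.05 were 5 in OPCs and 8 without the filter, where 2760 of 30165 genes reached it. With 1 library left out they were 4 to 13 in OPCs. The 13 came without dKO 3, where 1953 of 17364 genes reached it. In neurons they were 5, and 2 to 8 with 1 library left out. The 8 came without dKO 3 and the 2 without ctl 1, where 1072 and 781 of 14352 genes reached it. In the libraries without Y-linked expression they were 2, where 971 of 14352 genes reached it. Of the 10 genes in neurons, 0 to 3 had an unadjusted p under 0.05 with 1 library left out. The 3 came without dKO 3, where 1072 of 14352 genes did. None of the 10 passed the adjusted threshold.

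Whether replicate numbers pair the samples is not stated. Same-numbered ctl and dKO libraries deviated with r of -0.13, 0.17 and 0.15 in OPCs and 0.17, -0.05 and -0.06 in neurons. Not every library correlated best with its own number, but these few weak correlations cannot settle whether the numbers pair samples. With the replicate block, neuronal Shisa9 reversed to -0.017, Shisa7 went to 0.015, Gria3 to 0.15 and Cnih3 to 0.40, and it changed no call among the 10 genes in neurons. In neuron libraries without Y-linked expression the log2 fold changes turned to -0.092 (Gria1), -0.071 (Gria2), -0.23 (Gria3), -0.15 (Prrt1), -0.20 (Cnih2), -0.21 (Cnih3), -0.66 (Shisa7) and -0.97 (Shisa9). With 1 neuron library left out the ranges were -0.036 to 0.94 for Gria1, -0.59 to 0.96 for Gria3, -0.14 to 0.71 for Prrt1, -0.082 to 0.42 for Cnih2, -0.30 to 1.06 for Cnih3, -0.82 to 0.76 for Shisa7 and -0.96 to 1.07 for Shisa9, each lowest without dKO 1. The neuronal share differences (dKO minus ctl, percentage points) ranged from -0.59 to 2.39 for Gria1, -3.93 to 0.75 for Gria2, -1.56 to 1.29 for Gria3 and -0.91 to 3.39 for Gria4, and the flop share differences from -0.13 to 29.2 for Gria1 and -6.72 to 3.61 for Gria2. The causes were not tested. The planned level per kilobase was not run for neurons, whose data give no gene length. Low counts limit Prrt2 in OPCs, which Gm42742 also overlaps, and Shisa7, Shisa9, Cnih3 and Prrt1 in neurons.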
